A study of Mus musculus with 11 samples.

Results

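RNA was compared between colonic enterochromaffin (EC) cells of mice given estradiol benzoate (EB) and of mice given its vehicle, over every gene with enough reads. The comparison used 6 of the 11 libraries of the series, 4 of EC cells after EB and 2 of EC cells after sesame oil, and kept the 15287 of 49997 listed genes that had a normalised count of at least 10 in 2 or more of those 6 libraries. All donors in both groups were ovariectomised C57BL/6 females aged 10 to 14 weeks, of a line named ECFLTG whose construct the labels do not spell out, and each library was made from no fewer than 500 EC cells. The dose of EB and the time between treatment and cell isolation are not stated for these cells. The other 5 libraries come from L cells of a different line, Cck-Cre;R26LSL-tdTomato, taken 4 hours after EB or sesame oil, and enter only the test of a difference between cell types. The labels do not state whether replicate libraries derive from different mice. The p-values therefore reflect only how much these samples scatter, and that scatter may be technical.

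EC cells are hormone-secreting cells of the gut lining. They make serotonin from tryptophan with tryptophan hydroxylase (Tph1) and aromatic amino acid decarboxylase (Ddc), pack it into vesicles through a monoamine transporter (Slc18a1) beside granins such as Chga, and release it when receptors and voltage-gated channels respond to mechanical or chemical stimuli from the lumen. Released serotonin acts on nearby nerve endings and gut muscle. EB is an ester that releases estradiol, which acts through the nuclear receptors Esr1 and Esr2 and the membrane receptor Gper1, and ovariectomy removes the main natural source of that hormone.

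Each library had between 4955808 and 10640921 reads on genes, and the values given below are counts divided by the deposited size factor of each library (0.712 to 1.25 for EB, 2.16 and 0.907 for vehicle). Lists of values run over EB libraries 1 to 4 and then vehicle libraries 1 and 2, and a fold change is log2(EB) minus log2(vehicle) of the value plus 1, which understates the change of low genes. Genes next to the filter show what it kept: Krt1, a keratin gene, was kept with 0, 0, 5.19 and 13.6 in EB against 10.2 and 0 in vehicle, and Pip4k2a, a lipid kinase gene, was not kept with 0, 1.3, 11.2 and 0 in EB against 0.463 and 9.92 in vehicle.

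The 4 EB libraries differed strongly among themselves. The 12 EC-cell marker genes together took 0.824%, 1.14%, 4.97% and 12.5% of reads in EB libraries against 7.52% and 9.08% in vehicle libraries. The granins Chga and Chgb had the highest values of these markers in every library, and are also in the list of dense-core vesicle secretion. In EB library 4 both were above vehicle, while Tph1 lay inside the vehicle range. All 6 libraries held many reads of the defining markers Tph1, Chga and Slc18a1, but EB libraries 1 and 2 held the markers at less than the share of any other library. Colonocyte markers ran the other way, with 4.15%, 4.49%, 1.22% and 0.740% of reads in EB against 1.38% and 0.359% in vehicle. Goblet-cell markers took 0.0558%, 0.0869%, 0.939% and 0.0934% in EB against 1.81% and 0.155% in vehicle, so they were high in EB library 3 and vehicle library 1. These 2 libraries were also the most alike of all pairs, with a Pearson correlation across genes of 0.872, while the least alike were EB library 1 and vehicle library 2 at 0.560. The reads have no molecular identifiers, so the 95% Wilson interval of such a share covers counting error only. For the marker share of EB library 1 it ran from 0.817% to 0.832%.

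**Figure D1:**
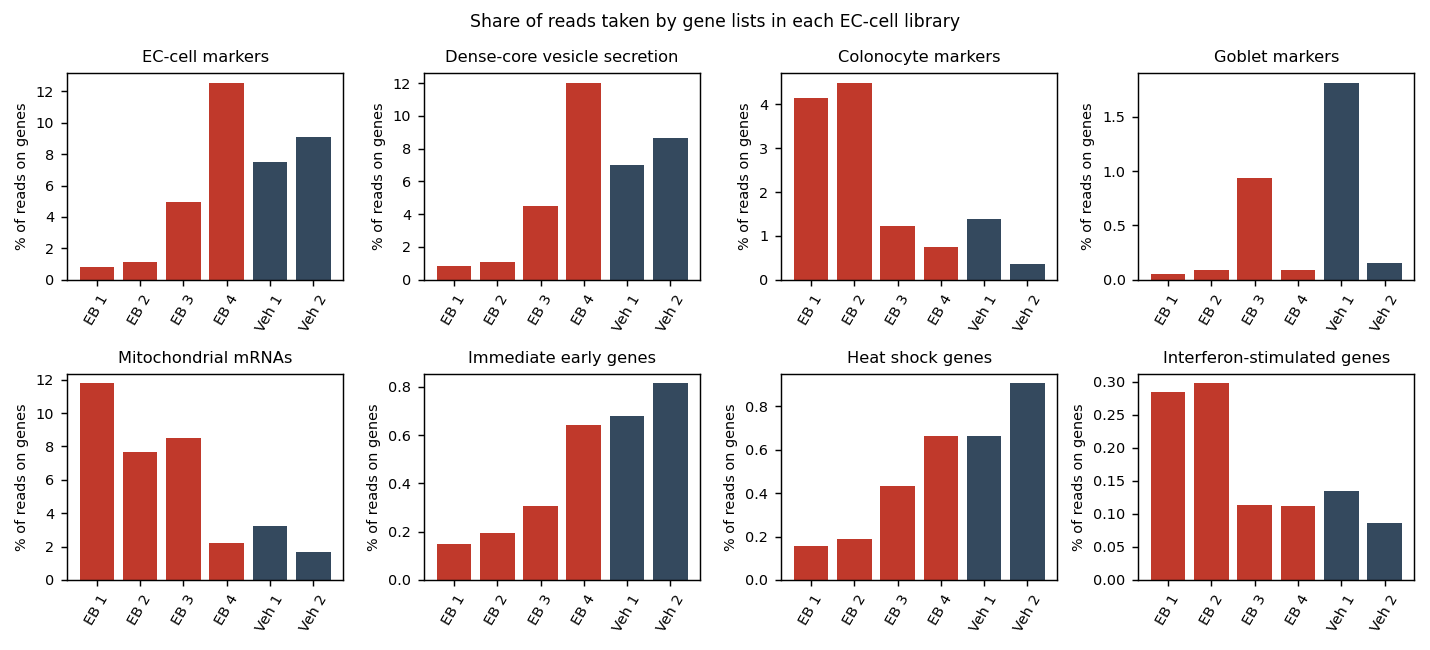
Percent of reads on genes taken by 8 gene lists in each EC-cell library (EB 1 to 4 in red, vehicle 1 and 2 in dark blue); bars are single libraries with no error. EC-cell markers take 0.824% and 1.14% in EB 1 and EB 2, where colonocyte markers take 4.15% and 4.49%. The lists of EC-cell markers and dense-core vesicle secretion share Chga and Chgb, so those panels count many of the same reads.

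In an exact two-sided permutation test over the 6 libraries, the difference in summed share between EB and vehicle passed for none of the 28 lists, with raw p of 0.133 or more and adjusted p of 0.491 or more (Benjamini-Hochberg). With 4 against 2 libraries the smallest p the test allows is 0.0667. In RNA from many cells, fewer cells of a type and less RNA per cell cannot be told apart. Because EB libraries 1 and 2 stand apart, the list medians and many of the gene values below are also given without them. Those values rest on EB libraries 3 and 4, and EB library 3 was itself unusual. It had reads on 30288 genes, 7915 of them read in no other EC library.

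Across all kept genes, limma called 0 of 15287 (0%) at an adjusted p under 0.05, with 542 (3.55%) at an unadjusted p under 0.05, 372 higher in EB (2.43%) and 170 lower (1.11%). The smallest limma adjusted p of any gene was 0.905, so no gene named below passed that test. EdgeR on the recovered reads also called 0, with 415 at an unadjusted p under 0.05, and DESeq2 called 15 genes higher in EB (0.0981%) and 0 lower. Without vehicle library 1 limma called 1 gene, and with any other single library left out it called 0. Without EB libraries 1 and 2 together it also called 0. All 4 EB values lay above both vehicle values in 761 genes (4.98%) and below both in 963 (6.3%). The median log2 fold change of all kept genes was -0.07, with 47.5% above 0 and 52.5% below, and 0.06 without EB libraries 1 and 2. The median standard error of a log2 fold change was 0.519 for genes with a mean of at least 1000, 0.781 for means of 100 to 1000 and 1.99 for lower genes. A doubling of a low gene was therefore not detectable at this number of libraries. A doubling of a gene in the higher classes could also go uncalled, so the 0 calls do not show that such genes were unchanged. The first principal component, with 35.1% of the variance, set EB libraries 1 and 2 (-160 and -169) apart from EB libraries 3 and 4 (39.7 and 94.0) and from vehicle (50.7 and 145).

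**Figure D2:**
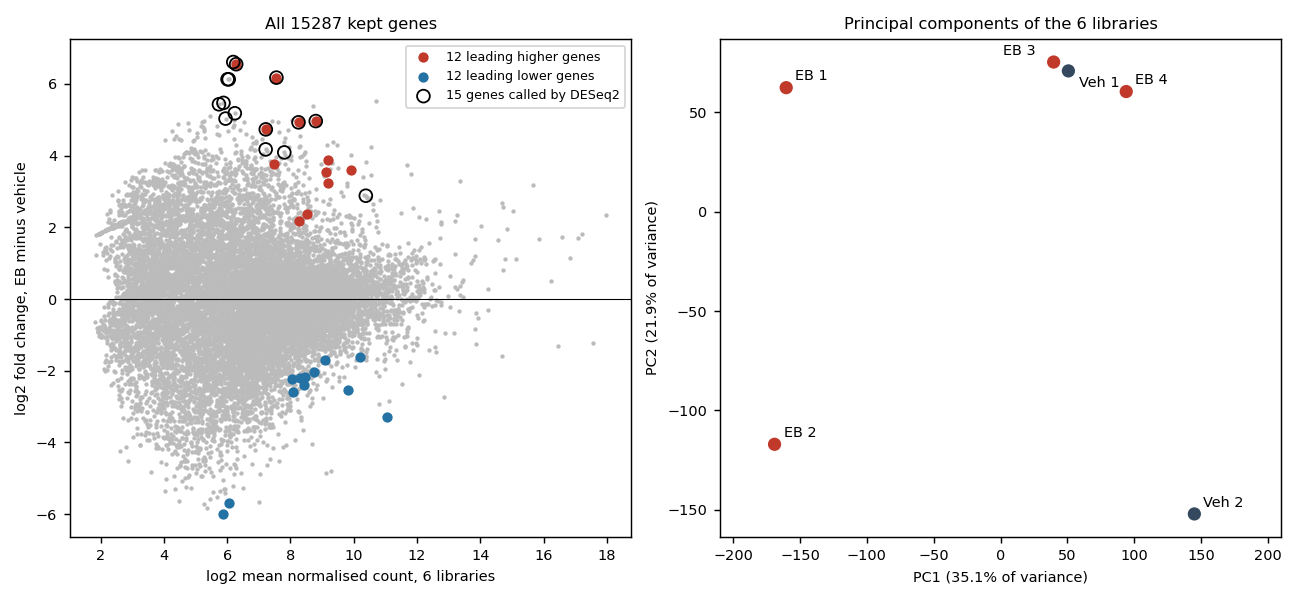
Left, log2 fold change (EB minus vehicle) of 15287 kept genes against their log2 mean normalised count, with the leading genes and the 15 genes called by DESeq2 marked. Right, the 6 libraries on principal components 1 (35.1% of variance) and 2 (21.9%); EB 1 and EB 2 lie at -160 and -169 on component 1, and EB 3, EB 4 and both vehicle libraries lie above 0.

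Genes that make and store serotonin had lower values in 2 of the 4 EB libraries and values near those of vehicle in the other two. Tph1, on chromosome 7 (46644641-46672537, GRCm38.p6), makes the rate-limiting enzyme and measured 4984, 5708, 29229.8 and 37566 in EB against 34468 and 46423 in vehicle. Its log2 fold change was -1.59 ± 0.85 (SE), or -0.27 without EB libraries 1 and 2, and the groups overlapped. Ddc, which makes the decarboxylase of the next step, measured 719, 800.1, 4604 and 6277 in EB against 4147 and 5389 in vehicle. That is a log2 fold change of -1.23 ± 0.81, which turned to 0.19 without EB libraries 1 and 2. Slc18a1, the vesicular monoamine transporter of these cells on chromosome 8 (69037708-69089238), had 1569.5, 1140.2, 3827 and 6704 in EB against 4422 and 6857 in vehicle (log2 fold change -1.08 ± 0.66, or -0.12 without EB libraries 1 and 2). Slc18a2, the second vesicular monoamine transporter, was far sparser at 11.2, 1.3, 37.2 and 50.4 in EB against 63 and 175 in vehicle, with all EB values below vehicle.

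The cofactor and breakdown genes of serotonin were mixed. Qdpr, which regenerates the hydroxylase cofactor, was lower in EB libraries 1 and 2, at 1087, 1089, 2179 and 3249 in EB against 1701 and 2664 in vehicle, and so was Maob, a second monoamine oxidase gene named after its values were seen, at 0, 24.8, 298 and 352 in EB against 277 and 162 in vehicle. Gch1, which makes the first enzyme of tetrahydrobiopterin synthesis, the cofactor of tryptophan hydroxylase, measured 555, 248, 355 and 651 in EB against 761 and 1402 in vehicle. Every EB value was below both vehicle values, with a log2 fold change of -1.29 ± 0.56 (unadjusted p = 0.0395 in limma) and -1.10 without EB libraries 1 and 2. Maoa, which makes the monoamine oxidase that degrades serotonin, measured 3024, 3938, 792 and 504 in EB against 984 and 56.2 in vehicle (log2 fold change 2.64 ± 1.04, or 1.41 without EB libraries 1 and 2). Maoa was highest in the 2 libraries with the highest colonocyte share, and the part of those cells in its value was not tested. Slc6a4, the serotonin reuptake transporter, had reads in EB library 3 alone (22.5) and Tph2, the neuronal hydroxylase, in none. Of the 12 serotonin genes 10 were kept, 3 with higher and 7 with lower values in EB, and their median log2 fold change of -1.15 became 0.22 without EB libraries 1 and 2.

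**Figure D3:**
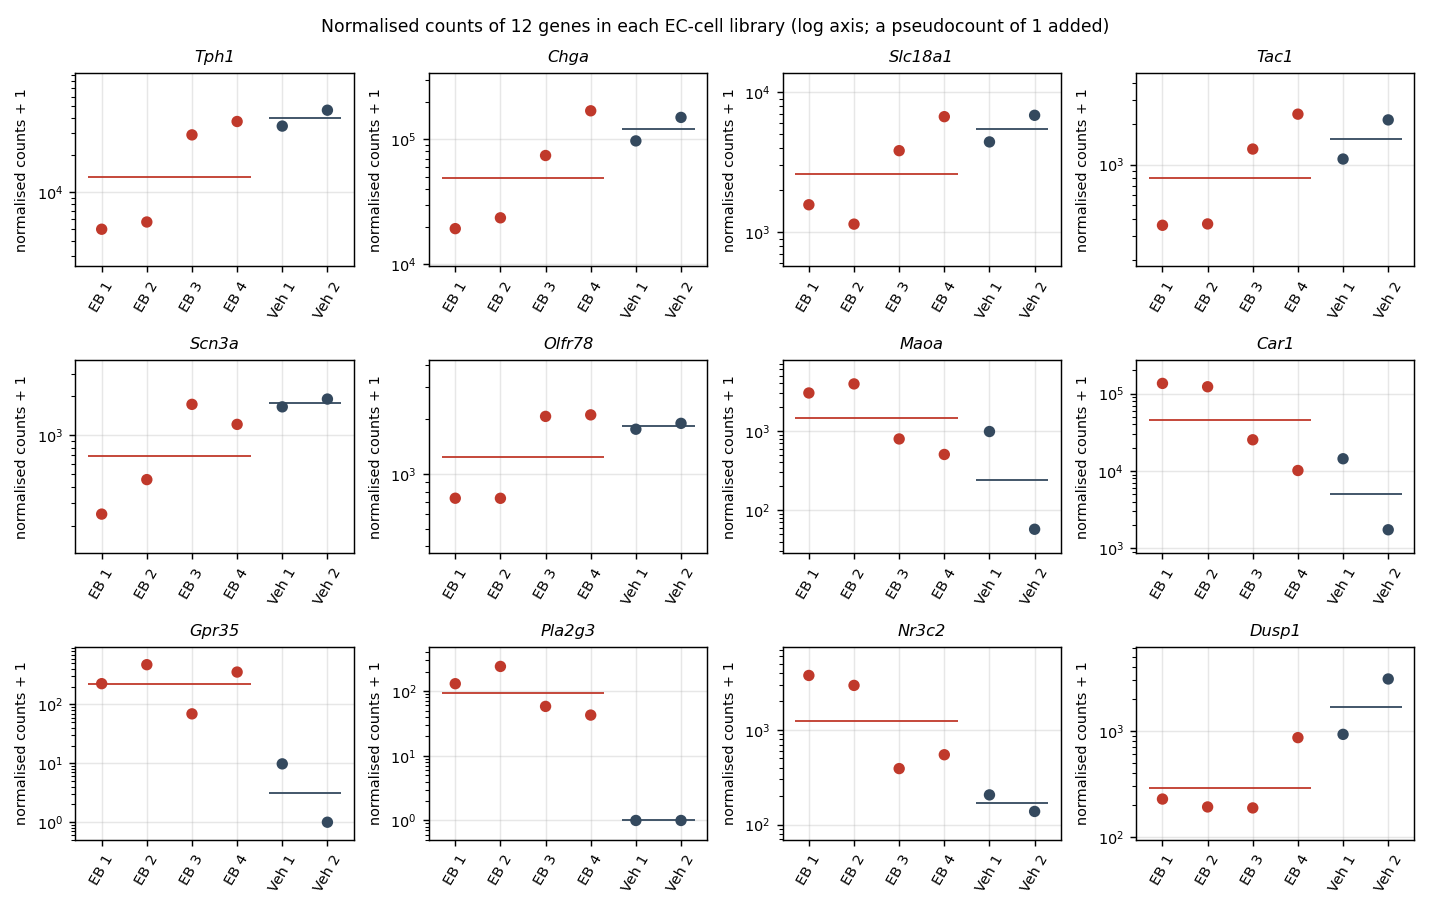
Normalised counts plus 1 on a log axis for 12 genes in each EC-cell library, with EB 1 to 4 in red and vehicle 1 and 2 in dark blue; lines are group means on the log scale. Tph1, Chga, Slc18a1 and Tac1 are lowest in EB 1 and EB 2, whereas Gpr35, Pla2g3 and Nr3c2 lie above vehicle, and Dusp1 below it, in all 4 EB libraries.

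Several other EC-cell markers, and the granins Chga and Chgb, were also lowest in EB libraries 1 and 2. Chga, the chromogranin A gene on chromosome 12 (102554941-102565027), measured 19267, 23524, 74278 and 169459 in EB against 97243 and 150019 in vehicle, so EB library 4 was the highest of all 6. Another granin-family gene, Scg2, had its highest value in EB library 3, at 25.3, 2.61, 181 and 3.2 in EB against 33.8 and 0 in vehicle. Chgb, the second granin, measured 36722, 49387, 144090.0 and 449642 in EB against 220784 and 270984 in vehicle, with a log2 fold change of -1.23 ± 1.14 that became 0.06 without EB libraries 1 and 2. Tac1, the precursor gene of substance P, had 357, 365, 1299.7 and 2348 in EB against 1097 and 2130.4 in vehicle. Lmx1a, a transcription factor gene of the EC lineage, had 220.4, 554, 1772 and 2130.2 in EB against 2134 and 1746 in vehicle. Fev, another transcription factor gene of serotonin-making cells, was below vehicle in all 4 EB libraries, at 37.9, 56, 174 and 126 in EB against 181 and 380.4 in vehicle (log2 fold change -1.65 ± 0.92, or -0.82 without EB libraries 1 and 2). All 10 kept EC-cell markers had lower mean log2 values in EB, with a median of -1.27, which was -0.03 without EB libraries 1 and 2.

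The promoter of Chgb is shown because that gene was the most read in 3 of the 6 libraries and holds a cyclic AMP response element, TGACGTCA, a sequence bound by CREB. The window runs 250 bases before to 50 after the RefSeq start of the gene on the plus strand (GRCm38.p6, chr2:132781392-132781691), and capitals mark the element, whose first base is at position -72 from the start.
Chgb: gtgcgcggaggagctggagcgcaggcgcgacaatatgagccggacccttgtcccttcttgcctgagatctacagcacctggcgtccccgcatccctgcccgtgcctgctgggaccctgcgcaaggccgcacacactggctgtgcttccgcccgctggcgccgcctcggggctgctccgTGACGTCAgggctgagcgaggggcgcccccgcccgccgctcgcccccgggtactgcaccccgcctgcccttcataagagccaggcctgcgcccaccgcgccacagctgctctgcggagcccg
The element reads the same on both strands and was found in 588 of 32851 RefSeq windows of that length (1.79%). Of 82 genes searched (a panel of EC-cell genes, the leading genes and those called by DESeq2) 59 have a window, and those of Chgb, Dusp1, Pcsk1, Scg2 and Slc18a2 held it. The share over all windows counts windows and not genes, so it is not on the same scale, and no test was made. The match describes the sequence and is not evidence that a factor binds there.

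Of 32 kept genes of dense-core vesicle secretion, 28 had lower and 4 higher values in EB, with a median log2 fold change of -1.30 that was -0.11 without EB libraries 1 and 2. Unadjusted p was under 0.05 for 5 of them, all lower, where 1.11% of all kept genes were lower at that p. Resp18, a secretory granule protein gene, had 1282, 1654, 4447 and 7570.4 in EB against 4848 and 12331 in vehicle. Cpe, which makes the carboxypeptidase that trims prohormones, had 883, 909.6, 2227 and 3151 in EB against 2465 and 11202 in vehicle (log2 fold change -1.77 ± 0.68, or -0.99 without EB libraries 1 and 2). Pcsk1, the prohormone convertase gene, had 114, 370.1, 2045 and 1517 in EB against 1691 and 1524 in vehicle. Snap25, a membrane fusion protein gene, had 973, 1123, 2962 and 4346 in EB against 3468 and 2785 in vehicle, and both Snap25 and Pcsk1 changed sign without EB libraries 1 and 2, to 0.21 and 0.13. Syt7, a calcium sensor of exocytosis named after its values were seen, was below vehicle in every EB library, at 364, 218, 788 and 1025 in EB against 1263 and 1323 in vehicle.

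Transcription factors of enteroendocrine cells had lower mean values in EB for all 18 kept members (17 after quantile normalisation). Their median log2 fold change was -1.08, or -0.09 without EB libraries 1 and 2. In 5 of the 18 every EB value was below vehicle, as in 6.3% of all kept genes. Pax4, which directs cells to the enteroendocrine fate, was one of them, at 247, 387, 664 and 604 in EB against 867 and 783 in vehicle. Neurod1, which acts later in that path, measured 570.0, 418, 2023 and 2535 in EB against 1492 and 3163 in vehicle, so the groups overlapped. Insm1 and Nkx2-2, 2 more factors of the path, had log2 fold changes of -0.51 ± 0.73 and -0.48 ± 0.66 that became 0.10 and 0.27 without EB libraries 1 and 2.

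Receptors and channels through which EC cells sense their surroundings were mixed, with 7 of 20 kept sensory receptor genes higher (9 after quantile normalisation) and 13 lower, but 11 of 20 higher without EB libraries 1 and 2. Gpr35, a G protein-coupled receptor gene on chromosome 1 (92948052-92986391), stood out with 225, 473, 68.3 and 354 in EB against 8.8 and 0 in vehicle. All EB values were above vehicle, the log2 fold change was 6.18 ± 1.41, or 5.65 without EB libraries 1 and 2, and DESeq2 gave an adjusted p of 0.00116. Gpr35 passed the filter through its EB values alone, which limits what its place above vehicle can show. Olfr78, a short-chain fatty acid receptor gene, had 736, 735, 2074 and 2114 in EB against 1763 and 1899 in vehicle, and Ffar2, another receptor for those acids, had 521, 362, 1360.2 and 1598 in EB against 949 and 2576 in vehicle. Olfr558, a receptor gene for branched fatty acids, had 9.83, 301, 920.3 and 1135 in EB against 589 and 1243 in vehicle. These 3 had overlapping groups and log2 fold changes of -0.56 ± 0.56, -0.97 ± 0.67 and -1.82 ± 1.43, which were 0.19, -0.08 and 0.26 without EB libraries 1 and 2. Trpm4, a calcium-activated cation channel gene, was high in EB libraries 1 and 2, at 2797, 2162, 401 and 525 in EB against 413 and 409 in vehicle (log2 fold change 1.37 ± 0.75, or 0.16 without them).

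Other receptors with known roles in EC cells were read at low or uneven levels. Piezo2, the mechanosensitive channel gene, had 37.9, 100.3, 294 and 68.8 in EB against 133 and 169 in vehicle. Adra2a, the gene of an adrenergic receptor, had 216, 121, 11.2 and 1.6 in EB against 12 and 135 in vehicle, so no direction could be read. The bile acid receptor gene Gpbar1 had 0, 28.7, 63.9 and 0 in EB against 19.4 and 1.1 in vehicle. Trpa1, the irritant channel gene, had reads in EB library 2 alone (3.91) and was not kept, and Trpc4, a cation channel gene, was also not kept. Npy1r, a receptor for peptide YY, had 171, 116, 171 and 665 in EB against 571 and 343 in vehicle, and Sstr5, a somatostatin receptor gene, had 0, 19.5, 206 and 128 in EB against 131 and 277 in vehicle.

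Of 22 kept voltage-gated channel genes 8 were higher and 14 lower, none at an unadjusted p under 0.05, with a median log2 fold change of -0.47 that was 0.15 without EB libraries 1 and 2. Scn3a, the sodium channel gene that carries EC-cell action potentials, had 246, 455, 1738 and 1217 in EB against 1662 and 1909.9 in vehicle (log2 fold change -1.35 ± 0.70, or -0.29 without them). Cacna1a, a calcium channel gene, had 166, 67.8, 345 and 326 in EB against 314 and 253 in vehicle. Cacna1h, a calcium channel gene of the T type, had 16.8, 195, 565 and 548 in EB against 1061 and 405 in vehicle. Kcnh6, a potassium channel gene, had 233, 477, 900.5 and 754 in EB against 645 and 625 in vehicle. All 4 channels had their lowest values in EB libraries 1 and 2.

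Receptors of estradiol were read at low levels, or not at all, in the EC-cell libraries. Esr1, the estrogen receptor alpha gene, had 19.7, 1.3, 27.7 and 0.8 in EB against 3.7 and 0 in vehicle, a log2 fold change of 1.70 ± 1.96 with overlapping groups. Esr2, the estrogen receptor beta gene, had reads in EB library 3 alone (3.46), the library with reads on the most genes. Gper1, the membrane receptor gene, had 0, 0, 78.6 and 48 in EB against 17.6 and 65.1 in vehicle. A library with 0 reads of a gene allows up to 3 reads by counting, so a low level in these libraries was not detectable. Nr3c2, the mineralocorticoid receptor gene on chromosome 8 (76898083-77245012), was well read, at 3767, 2957, 389.7 and 546 in EB against 205 and 137 in vehicle. All EB values of Nr3c2 were above vehicle, its log2 fold change was 2.88 ± 0.85, or 1.46 without EB libraries 1 and 2, and DESeq2 gave an adjusted p of 0.0457. Esrra, an estrogen-related receptor gene that takes no estradiol, had 591, 252, 84.7 and 76.8 in EB against 61.6 and 80.5 in vehicle. Of the 10 steroid receptor genes 6 were kept, 4 higher and 2 lower.

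Genes known to be induced by estrogen in uterus or breast did not separate the groups. Of 40 listed genes 24 were kept, 11 higher and 13 lower (9 higher after quantile normalisation). Their median log2 fold change was -0.07, the same to 2 decimals as that of all kept genes. Pgr, the progesterone receptor gene and a standard estrogen target, had 80, 0, 6.05 and 0 in EB against 0.926 and 1.1 in vehicle and was not kept. Greb1, another standard target, had 0, 0, 45.8 and 65.6 in EB against 65.7 and 1.1 in vehicle. Ctsd, the cathepsin D gene, had 1613, 2649, 1598 and 2744 in EB against 1771 and 1833 in vehicle, a log2 fold change of 0.21 ± 0.45. All EB values lay above vehicle in 1 list member and below it in 1, where 4.98% and 6.3% of all kept genes were so placed. Both were named after their values were seen: Celsr2, a cadherin gene, had 5.62, 103, 81.2 and 36 in EB against 4.63 and 0 in vehicle, and Xbp1, a transcription factor gene of secretory cells, had 1043, 830.1, 856 and 1286 in EB against 1626 and 1464 in vehicle. The full estrogen response element is GGTCA and TGACC with any 3 bases between them, and reads the same on both strands. It was found in 23 of 32851 windows (0.0700%). Of the 30 genes of the estrogen list that have a window, 0 held it, which says only that these letters are not within the 300 bases searched.

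Hormones of other enteroendocrine cells varied between the libraries of both groups, and 11 of 15 listed hormone genes were kept. Gcg, the proglucagon gene, had 2051, 10171, 27529 and 4599 in EB against 4233 and 38536 in vehicle. Pyy, the peptide YY gene, had 6376, 3607, 20955 and 4353 in EB against 5453 and 48565 in vehicle. Sct, the secretin gene, had 1004, 872, 2624 and 2218 in EB against 1637 and 6084 in vehicle, and Cck, the cholecystokinin gene, had 140.4, 119, 744 and 176 in EB against 256 and 881 in vehicle. In each of these 4 genes vehicle library 2 was the highest and EB library 3 the second. Sst, the somatostatin gene of D cells, had 2013, 5573, 1676 and 498 in EB against 82.9 and 9276 in vehicle, and was the 1 of 11 kept hormone genes with a higher mean log2 value in EB. The list's median log2 fold change was -1.13, or -0.39 without EB libraries 1 and 2.

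Colonocyte genes had higher values in EB for all 24 kept members (23 after quantile normalisation). The median of their log2 fold changes was 2.23, against -0.07 over all kept genes. Unadjusted p was under 0.05 for 10 of the 24, all higher (2.43% of all kept genes), and in 3 every EB value was above vehicle (4.98% of all kept genes). Without EB libraries 1 and 2 the median was 0.76 and 17 of 24 were higher. Car1, a carbonic anhydrase gene on chromosome 3 (14766214-14808365), measured 135246, 122418, 25293 and 10144 in EB against 14388 and 1740.0 in vehicle (log2 fold change 3.18 ± 1.09, or 1.68 without them). Lypd8, which keeps bacteria off the epithelium, measured 56975, 67781, 13694 and 5485 in EB against 11772 and 1096 in vehicle. Guca2a, the guanylin gene, measured 20155, 25275, 5264 and 992 in EB against 6327 and 319 in vehicle. In Car1, Lypd8 and Guca2a EB libraries 1 and 2 were highest, and vehicle library 1 was above EB library 4. Krt20, a keratin gene of mature surface cells, differed little at 13825, 17793, 5106 and 10073 in EB against 11440.3 and 9253 in vehicle (log2 fold change 0.04 ± 0.58).

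Markers of the remaining cell types were mostly sparse. Muc2, the main mucin gene of goblet cells, measured 986, 950.0, 15296 and 142 in EB against 11056 and 293 in vehicle, and Clca1, another goblet product, measured 11.2, 179.8, 5627 and 76 in EB against 38279.5 and 35.3 in vehicle. Both were high in EB library 3 and vehicle library 1 alone. Tuft-cell markers took at most 0.00651% of reads in any library, immune markers at most 0.0200%, stromal and endothelial markers at most 0.0344%, and neuron and glia markers at most 0.00972%. Of 18 immune markers 8 were kept, of 15 stromal and endothelial markers 8, of 12 neuron and glia markers 6, and of 11 tuft markers 4. Lgr5, the stem-cell receptor gene, had 8.42, 0, 44.9 and 66.4 in EB against 3.24 and 0 in vehicle. Of 37 kept cell-cycle genes 10 were higher and 27 lower in EB, with 3 where every EB value was below vehicle, a share near the 6.3% of all kept genes. Without EB libraries 1 and 2, 18 of the 37 were higher. Mki67, which marks dividing cells, had 70.2, 255, 226 and 318 in EB against 282 and 383 in vehicle.

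Genes of oxidative phosphorylation had higher values in EB from both genomes. All 13 mitochondrial mRNAs were higher, with a median log2 fold change of 1.82 that was 0.89 without EB libraries 1 and 2, where all 13 were still higher. COX1, a subunit of complex IV, measured 382330.0, 184973, 200771 and 52858 in EB against 63809.9 and 34669.7 in vehicle. CYTB, the cytochrome b gene of complex III, measured 218258, 163306, 107405 and 28794 in EB against 41395 and 23289 in vehicle. In both genes EB libraries 1 to 3 were above vehicle and EB library 4 lay between the vehicle values. ND6, a complex I subunit named after its values were seen, had all EB values above vehicle, at 18138, 11991, 5689.7 and 2233 in EB against 2058 and 1416 in vehicle. Mitochondrial mRNAs took 11.8%, 7.65%, 8.48% and 2.19% of reads in EB against 3.21% and 1.68% in vehicle. EB libraries 1 to 3 were above vehicle in that share and EB library 4 lay inside the vehicle range. The colonocyte share of EB library 3 was 1.22%, inside the vehicle range of that share. The part of colonocytes in the mitochondrial shares was not tested.

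Of 76 kept nuclear genes of oxidative phosphorylation 75 were higher in EB (73 after quantile normalisation). The median log2 fold change was 0.82, but 0.14, with 51 of 76 higher, without EB libraries 1 and 2. In 20 of the 76 every EB value was above vehicle, where 4.98% of all kept genes were so placed. Cox4i1, a complex IV subunit, was one of them, at 19101, 20342, 4456 and 4749 in EB against 4253 and 3679.7 in vehicle. Atp5b, an ATP synthase subunit, was not, at 14346, 20987, 7696 and 8145 in EB against 8199.7 and 7961 in vehicle. EB libraries 1 and 2, with the highest colonocyte share, were highest for both genes, and the part of that share in these values was not tested. Ribosomal protein genes, a list of like size, had a median of 0.21 with 61 of 79 higher (51 after quantile normalisation).

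Interferon-stimulated genes had higher values in EB for 28 of 30 kept members. Their median log2 fold change was 1.77, or 0.89 without EB libraries 1 and 2. The list took 0.285%, 0.298%, 0.114% and 0.112% of reads in EB against 0.134% and 0.0863% in vehicle. In that share EB libraries 3 and 4 lay inside the vehicle range. In vehicle library 2, 6 of the listed genes had 0 reads, and in vehicle library 1 none did. Irf7, a transcription factor gene of that response, measured 3336, 2284, 380.2 and 786 in EB against 480.1 and 397 in vehicle. Oas1a, which makes a sensor of viral RNA, measured 1829, 1337, 568 and 324 in EB against 388 and 128 in vehicle (log2 fold change 1.87 ± 0.73, unadjusted p = 0.0244 in limma, or 0.94 as the log2 fold change without EB libraries 1 and 2). EB libraries 1 and 2 were the highest for both genes. Antimicrobial genes of the mucosa were more mixed. Reg3b and Reg3g, which make antibacterial lectins, measured 58251, 66496, 21612 and 4839 and 15966, 15990.5, 4557 and 772 in EB, against 6053 and 2954 and 1419 and 702 in vehicle. Of 14 kept defence genes 9 were higher and 5 lower, with 12 higher without EB libraries 1 and 2, and the goblet products Retnlb and Ang4 were among the lower over all 6 libraries, high in EB library 3 and vehicle library 1 alone.

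Genes that respond within minutes to stimulation had lower values in EB for 14 of 20 kept members, 6 of them at an unadjusted p under 0.05 (1.11% of all kept genes), and all EB values were below vehicle in 4 (6.3% of all kept genes). The list took 0.149%, 0.193%, 0.305% and 0.641% of reads in EB against 0.677% and 0.814% in vehicle, so the 2 groups did not overlap in that share, with a permutation p of 0.133. The median log2 fold change was -0.73, or -0.46 without EB libraries 1 and 2. Dusp1, a phosphatase gene that switches off stress kinases, on chromosome 17 (26505591-26508472), measured 227, 192, 188 and 862 in EB against 926 and 3073 in vehicle (log2 fold change -2.54 ± 0.72, or -2.06 without them). Egr1, an immediate early transcription factor gene, measured 89.8, 207, 837 and 2679.7 in EB against 3721 and 5207 in vehicle (log2 fold change -3.28 ± 1.02, or -1.55 without them). Btg2, an early antiproliferative gene, measured 903, 1285, 2651 and 2209 in EB against 2999 and 4315 in vehicle. For Dusp1, Egr1 and Btg2 every EB library was below both vehicle libraries, and EB libraries 3 and 4 were nearer to vehicle for Egr1 and Btg2. Fos and Jun, which together form the AP-1 factor, measured 1224, 2812, 4661 and 9189 and 948, 842, 1302 and 7601 in EB, against 9032 and 10492 and 6042 and 8905 in vehicle, with EB library 4 inside the vehicle range.

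Heat shock genes had lower values in EB for 11 of 12 kept members, and for all 12 without EB libraries 1 and 2, with medians of -1.06 and -0.42. Their share was 0.158%, 0.187%, 0.432% and 0.663% of reads in EB against 0.662% and 0.906% in vehicle. Hsp90aa1, the inducible HSP90 gene, measured 1019, 495, 2205 and 2238 in EB against 2439.7 and 4767 in vehicle (log2 fold change -1.44 ± 0.63, or -0.62 without EB libraries 1 and 2). Hspa8, the constitutive HSP70 gene, measured 4283, 5079.5, 7578 and 11769.9 in EB against 11434 and 14582 in vehicle, with EB library 4 inside the vehicle range. Of 27 kept genes of protein folding in the endoplasmic reticulum 21 were lower and 6 higher, with a median of -0.39, and Hspa5, its main chaperone gene, measured 1763, 1686, 2853 and 3431 in EB against 4841 and 2899 in vehicle.

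The promoters of 2 early genes and 1 heat shock gene that lay below vehicle in every EB library are shown with an element found in each. Dusp1 (chr17:26508423-26508722, minus strand) and Btg2 (chr1:134079106-134079405, minus strand) hold TGACGTCA in capitals, first base at -143 and -166, and Hsph1, the gene of an HSP110 chaperone (chr5:149636266-149636565, minus strand), holds the heat shock element, GAA, TTC and GAA with any 2 bases between each, on the other strand, first base at 16. The windows are those of RefSeq, GRCm38.p6, read along the gene's own strand.
Dusp1: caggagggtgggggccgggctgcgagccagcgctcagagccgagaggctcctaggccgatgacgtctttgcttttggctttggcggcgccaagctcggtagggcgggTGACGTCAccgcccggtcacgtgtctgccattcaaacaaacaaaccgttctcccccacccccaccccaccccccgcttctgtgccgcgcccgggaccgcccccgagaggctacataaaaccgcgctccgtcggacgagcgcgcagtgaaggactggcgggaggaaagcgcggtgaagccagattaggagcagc
Btg2: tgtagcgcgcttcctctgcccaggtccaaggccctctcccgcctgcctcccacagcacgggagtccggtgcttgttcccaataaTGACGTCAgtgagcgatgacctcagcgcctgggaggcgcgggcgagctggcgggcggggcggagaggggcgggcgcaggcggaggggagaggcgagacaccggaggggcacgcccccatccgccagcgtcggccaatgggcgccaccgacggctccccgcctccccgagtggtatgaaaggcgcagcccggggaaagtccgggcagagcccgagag
Hsph1: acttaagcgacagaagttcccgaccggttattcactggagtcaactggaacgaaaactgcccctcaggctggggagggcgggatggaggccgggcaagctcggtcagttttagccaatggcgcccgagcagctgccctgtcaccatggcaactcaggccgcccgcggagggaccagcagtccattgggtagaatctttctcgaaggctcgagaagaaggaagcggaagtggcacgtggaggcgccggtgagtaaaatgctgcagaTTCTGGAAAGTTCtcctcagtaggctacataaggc
Of 16 early genes with a window, Btg2 and Dusp1 were the 2 that held TGACGTCA. Of 9 heat shock genes with a window, Hspd1, Hspe1 and Hsph1 were the 3 that held the heat shock element. Over all windows the shares were 1.79% and 0.603%, but these count windows and not genes, so they are not on the same scale. The estrogen response element was found in 0 of these 16 early genes and 0 of these 9 heat shock genes. Hsph1 measured 302, 160.3, 473 and 586 in EB against 756 and 764 in vehicle. No test was made of these shares.

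**Figure D4:**
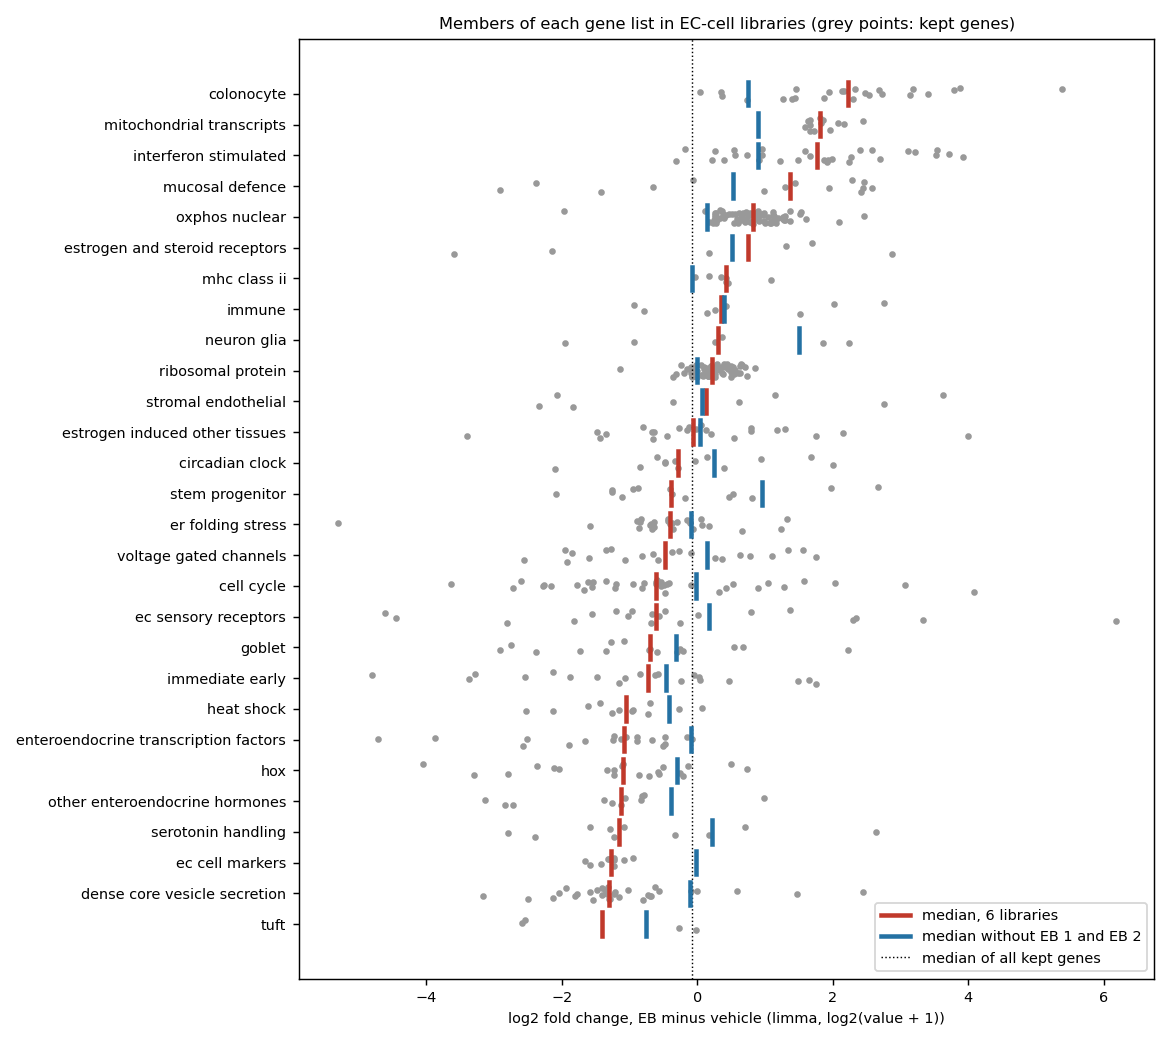
Log2 fold change (EB minus vehicle) of each kept member of 28 gene lists, as grey points, with the list median over 6 libraries in red, the median without EB 1 and EB 2 in blue, and the median of all kept genes as a dotted line. The colonocyte median is 2.23 over 6 libraries and 0.76 without EB 1 and EB 2, and that of EC-cell markers -1.27 and -0.03.

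The 15 genes that DESeq2 called higher in EB had every EB value above both vehicle values. Each also had an unadjusted limma p under 0.05, from the same libraries. Their highest EB library was library 1 or 2 and their lowest was library 3 or 4 in all 15, and 6 of them had 0 reads in both vehicle libraries. Those 6 passed the filter through their EB values alone, and so did Gpr35, Lrat and Ppm1j, whose vehicle values were under 10. Of the called genes, only Nr3c2 had a value of at least 10 in both vehicle libraries, so the others needed EB values to be kept. Of all kept genes, 315 had 0 reads in both vehicle libraries and 3 had 0 reads in all EB libraries. Pla2g3, a secreted phospholipase gene on chromosome 11 (3488158-3499346), had 129, 239.8, 57 and 41.6 in EB against 0 and 0 in vehicle. Its EB mean was at least 119-fold above vehicle, with 3 reads over the vehicle group as the floor (DESeq2 adjusted p = 0.00116). Pla2g4f, another phospholipase gene, had 139, 104, 11.2 and 133 in EB against 0 and 0 in vehicle, a mean at least 99-fold higher on that floor. Paqr8, which makes a membrane progestin receptor, had 183, 122, 12.1 and 80 in EB against 0 and 0 in vehicle, a mean at least 101-fold higher. Their fitted log2 fold changes without EB libraries 1 and 2, which depend on the pseudocount and are no bound, were 5.64, 5.34 and 5.03.

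Other called genes had a few reads in vehicle. Slc17a4, an anion transporter gene of the gut on chromosome 13 (23897879-23915009), had 1682, 609.9, 128 and 211 in EB against 38.9 and 3.31 in vehicle (log2 fold change 4.97 ± 1.18, or 3.66 without EB libraries 1 and 2). Lrat, which esterifies retinol, had 105, 117, 34.6 and 94.4 in EB against 2.31 and 0 in vehicle. Zfp217, a zinc finger gene, had 341, 222, 154 and 158 in EB against 18.1 and 2.21 in vehicle, with EB values that lay close together. Il15, a cytokine gene of the epithelium, had 424, 830.1, 43.2 and 25.6 in EB against 15.3 and 3.31 in vehicle. Without EB libraries 1 and 2 the log2 fold changes of Zfp217 and Il15 were 4.33 and 2.03. Tnni1, Adap1, Ppm1j, Slc45a3, Ly6g2 and E230025N22Rik were the remaining called genes, besides Nr3c2 and Gpr35 above. Slc45a3 had 185, 248, 19.9 and 0.8 in EB, and Ly6g2 had 250, 93.8, 25.9 and 0.8, each against 0 and 0 in vehicle. For both, EB library 4 lay above vehicle by 1 read.

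Outside the DESeq2 calls, the leading genes were those with the smallest limma p among non-overlapping genes with a mean of at least 50, so their values are a description. Pigq, an enzyme gene of GPI anchor synthesis on chromosome 17 (25926420-25942881), had 549, 381, 382 and 376 in EB against 100.5 and 81.6 in vehicle, with a log2 fold change of 2.19 ± 0.60, or 2.05 without EB libraries 1 and 2. Slc40a1, the iron exporter gene ferroportin, had 1268, 1022, 645 and 274 in EB against 249 and 7.72 in vehicle. Aldh1a1, which makes retinoic acid, had 1089, 1799.6, 179.7 and 270.4 in EB against 101 and 33.1 in vehicle. Zdhhc13, a palmitoyltransferase gene, had 674, 573, 357 and 376 in EB against 178 and 46.3 in vehicle, and Slc4a2, an anion exchanger gene, had 2307, 1583, 529 and 879.9 in EB against 513 and 16.5 in vehicle. The last of these had EB library 3 only just above vehicle library 1, and vehicle library 2 far below it. Clmn and AA986860 completed the 12 with log2 fold changes of 3.55 ± 0.94 and 3.78 ± 1.10.

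Several of the leading genes with lower values had EB libraries close to each other. Fnta, a farnesyltransferase subunit gene on chromosome 8 (25998688-26015610), had 181, 211, 163 and 226 in EB against 493 and 1275 in vehicle, a log2 fold change of -2.03 ± 0.60 and of -2.04 without EB libraries 1 and 2. Tppp3, a tubulin polymerisation gene, had 635, 487, 691 and 876 in EB against 1297 and 3101 in vehicle. In both genes EB libraries 1 and 2 lay beside EB libraries 3 and 4, and vehicle library 2 was at least as far from vehicle library 1 as the EB libraries were from each other. Wnk4, a kinase gene of ion transport, had 259.7, 175, 484 and 367 in EB against 769.9 and 1252 in vehicle, and Nsun2, an RNA methyltransferase gene, had 59, 250.2, 156 and 175 in EB against 373 and 1113 in vehicle. Arfgef3, Poglut1, Usp20, Jrk and Tcte2 were also among the leading lower genes, with log2 fold changes from -5.99 to -2.20, and in each of them EB library 3 was the highest and stood apart from the other EB libraries.

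Whether the EB minus vehicle difference of a gene was particular to EC cells was tested against that of L cells over all 11 libraries. Limma called 0 of 13802 genes kept in both tables (0%), with 630 (4.56%) at an unadjusted p under 0.05. Without EC vehicle library 1 nearly all calls were of genes whose EB minus vehicle difference was higher in EC cells than in L cells. That fit rests on a single EC vehicle library. The smallest p belonged to Olfr78, with a difference of -6.77 ± 0.93 (limma adjusted p = 0.217). In L cells Olfr78 had 57.3, 68.8 and 99.4 in EB against 0 and 0 in vehicle, beside the EC-cell values of 736, 735, 2074 and 2114 in EB and 1763 and 1899 in vehicle. Endocrine markers moved with it in the L-cell libraries, where the EB minus vehicle log2 fold change was 4.02 for Chga and 4.57 for Chgb, with a median of 2.19 over 8 EC-cell markers, and their part in the Olfr78 value was not tested. Pla2g3 came next with a difference of 7.39 ± 1.23 (limma adjusted p = 0.595), and in L cells had 398, 355 and 280.1 in EB against 486 and 770.0 in vehicle. Pigq and Prss12, a serine protease gene, had differences of 2.20 ± 0.45 and -7.44 ± 1.63 (limma adjusted p = 0.862 for both). Alox15, a lipoxygenase gene, had 1.4, 5.21, 29.4 and 0 in EB against 116 and 197 in vehicle EC cells, and 47.2, 45.3 and 32.5 in EB against 3.19 and 0 in vehicle L cells. The cell types also differ in mouse line, in depth and, for EC cells, in an unstated time after treatment, which cannot be told apart from the cell type here.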

How the data were processed

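Polyadenylated RNA of isolated EC cells was turned into full-length cDNA with a SMART-Seq HT kit and tagmented, per the labels' protocols. The submitters' processing notes name mm10, DESeq2, featureCounts and STAR, and give no versions. Each deposited value is a signal, a count that the authors divided by the library's size factor, held in one table for EC cells and another for L cells, each normalised on its own. Of the EC values 100% were whole multiples of a single read (tolerance 0.001 reads), so whole reads were recovered and used as an alternative. All 49997 symbols were found in the RefSeq table of GRCm38.p6 (the same assembly as mm10), the source of coordinates and promoters.

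Genes were tested with limma 3.58.1 (R 4.3.3, mean-variance trend) on log2(value + 1) of the 6 EC libraries, with a Benjamini-Hochberg adjusted p under 0.05 as the call. Alternatives were pseudocounts of 0.5 and 4, no filter or one at 50, quantile normalisation, TMM factors, DESeq2 1.42.0 and edgeR 4.0.16 with the deposited size factors, a robust prior, array weights, a replicate block, an adjusted p under 0.1, each library left out, and EB libraries 1 and 2 left out. The method was tested on simulated data. Those had the same spread for every gene and no split among libraries of a group, so they do not show how the method does on these libraries. Medians of lists used kept genes. The genes, lists and alternatives were chosen with earlier results of these data known, and the list of mitochondrial mRNAs was respelled once the table's names were seen. Genes were named by rule: a panel of 48 genes, up to 12 non-overlapping genes per direction by smallest limma p with a mean of at least 50, up to 15 calls per tool, 4 members per list by mean, and the 5 smallest p of the difference between cell types. Other genes are said to be named after their values were seen, as are Krt1, Pip4k2a, Tph2 and Hsph1. A few genes that this rule covers are not reported here.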

Additional observations from a re-analysis of the deposited data

Results flagged for a closer look

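Of 104 sets of 4 EB values tested (named genes and list shares), 15 had 1 library far from the other 3, by the gap to its nearest neighbour divided by the whole range of the 4. Chance alone marks about 1 set in 20 only where values follow a normal distribution, which was not checked for these counts and shares. The genes share their libraries, and some were named from these same EB values. EB library 3 was the high one for Pyy (0.84), Cck (0.908), Scg2 (0.873), Muc2 (0.944), Arfgef3 (0.84), Poglut1 (0.927), Jrk (1), Usp20 (0.838) and Tcte2 (0.843), and for the summed shares of other enteroendocrine hormones (0.857), goblet markers (0.957) and tuft markers (0.951). Scg2, a secretogranin gene, had 25.3, 2.61, 181 and 3.2 in EB against 33.8 and 0 in vehicle, and Jrk had 0, 0, 15.6 and 0 in EB against 59.3 and 273 in vehicle. EB library 3 also had reads on 30288 genes, 7915 of them read in no other EC library, against 15868 to 19859 genes with a read in each of the other 5.

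EB library 4 was the high one for the peptide YY receptor gene Npy1r (0.899) and for Dusp1 (0.941), and EB library 1 for Pigq (0.965). Dusp1 and Pigq kept all EB values on one side of vehicle, and Npy1r did not.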

How the results depend on the processing

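With 4 EB and 2 vehicle libraries, and 315 kept genes at 0 reads in both vehicle libraries against 3 at 0 reads in all EB libraries, low genes gave folds that rest on few reads. The 0 calls of limma became 15 with DESeq2 and 27 (23 higher) with DESeq2 and no filter, 0 to 1 with 1 library left out, and 0 under every other alternative except the replicate block. With the replicate number as a block there were 24 calls (17 higher in EB), among them Tph1, Chga and Chgb lower and COX1, ND1 and CYTB higher. Only 2 numbers occur in both groups, so that fit compares EB libraries 1 and 2 with vehicle and drops EB libraries 3 and 4. Deviations of same-numbered libraries correlated at 0.036 and 0.0069, so the numbers were not taken as pairs. The 0 calls of the difference between cell types ranged from 0 to 257 with 1 library left out, and stayed 0 under its block.

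Without EB libraries 1 and 2 the log2 fold change turned sign for 43 of 165 kept genes covered by the naming rule, among them Krt20, Atp5b, Kcnh6, Kcnq1, Qdpr and Retnlb of the lists and, of the panel, Cacna1a 0.25, Chgb 0.057, Ddc 0.19, Gper1 0.83, Greb1 2.24, Insm1 0.097, Lmx1a 0.0093, Neurod1 0.060, Nkx2-2 0.27, Olfr558 0.26, Olfr78 0.19, Pcsk1 0.13, Reg4 0.42, Snap25 0.21 and Tac1 0.19. Adra2a turned to 0.26 with edgeR and with DESeq2 (filtered or not), 0.033 after quantile normalisation and 1.95 with the block. Gpbar1 turned to -0.28 at a pseudocount of 0.5 and -0.27 with the block, and array weights turned Greb1 to 0.20 and Muc2 to 0.32. With 1 library left out, values ran from -2.16 to 1.22 for Adra2a, -2.43 to 0.76 for Gcg, -1.63 to 1.66 for Gpbar1, -3.16 to 1.83 for Greb1, -1.49 to 0.47 for Insm1, -3.21 to 2.02 for Muc2, -2.84 to 0.31 for Pyy and -1.08 to 4.04 for Scg2. The cause was not tested for any of these.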
